A study of Homo sapiens with 40 samples.

Results

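The enzymes that make NAD, phosphorylate it, or take apart the ADP-ribose chains built from it were followed in HEK293A cells with and without PARP1. HEK293A is an adherent human embryonic kidney line. The set holds 10 genes of the 58395 in the count table, chosen by name from the pathway: NAMPT, NMNAT1, NMNAT3, NAPRT, NADSYN1, QPRT, NADK, NADK2, PARG and ADPRS. All 10 had enough counts to be tested, among 28922 tested genes in all. Wild-type (WT) cells and 1 clone carrying a CRISPR/Cas9 deletion in PARP1 (PARP1-KO, called a knockdown in 1 field of the labels) each received no treatment, 0.1% DMSO, Tpc with 0.1% DMSO, OL9-119 in 0.1% DMSO, or Tpc and OL9-119 together, for 5 to 5.5 h. Tpc is topotecan, a poison that traps topoisomerase 1 on DNA, and was used at 100 nM in WT and 50 nM in PARP1-KO cells, so that genotype and Tpc dose cannot be told apart in groups that received it. OL9-119, at 5 μM, is a usnic acid derivative that inhibits TDP1, the enzyme that clears trapped topoisomerase 1. Each of the 10 groups had 4 replicates, 40 libraries in all. The labels call them biological and 1 passage of the study's methods calls them technical, so that p-values measure the spread between these libraries. Since a single clone represents the knockout, the effect of losing PARP1 and the peculiarities of that clone cannot be told apart.

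NAD is a coenzyme of oxidation and reduction reactions and also a substrate that some enzymes consume. PARP1 is among its main consumers after DNA damage: it splits NAD, builds poly(ADP-ribose) and releases nicotinamide. In most human cells nicotinamide is returned to NAD by salvage, in which NAMPT makes nicotinamide mononucleotide and an NMNAT enzyme adds the adenylate. NAPRT starts a parallel route from nicotinic acid, QPRT ends the de novo route from tryptophan, and both routes finish through NADSYN1, which amidates the nicotinic acid dinucleotide. NADK in the cytosol and NADK2 in mitochondria phosphorylate NAD to NADP. PARG cuts poly(ADP-ribose) chains, and ADPRS removes ADP-ribose from serine.

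The targeted gene was low in every library labelled PARP1-KO. PARP1 reached 30.4 to 46.6 CPM (counts relative to the TMM-scaled library size) in the 20 PARP1-KO libraries and 737 to 887 CPM in the 20 WT libraries, and the ranges did not overlap. Its mean was 4.33% to 5.24% of WT across the treatments, with p = 0.0286 in a two-sided exact permutation test of each treatment, the smallest p that 4 libraries against 4 allow. Total counts ranged from 3455043 to 20379777 per library. At the smallest total, 8 WT libraries (untreated replicates 1 and 3, DMSO replicates 2 and 3, replicate 2 of Tpc and of OL9-119, and replicates 1 and 2 of the combination) detected 15510 to 16922 genes and the other 32 libraries 17970 to 21571. Of 7 markers of the HEK293 background, the keratins KRT8 and KRT18 and the filament genes NEFL and VIM were at 189 CPM or more in each library and CDH2 at 29.1 or more, while NEFM lay between 3.38 and 49.6 CPM and PAX2, a kidney transcription factor, between 0.0979 and 12.1 CPM. The 7 summed to 1711 to 2602 CPM in WT and 1865 to 2266 CPM in PARP1-KO libraries.

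These markers also differed with the genotype, and their part in the results was not tested. Between untreated genotypes 3 of the 7 passed edgeR's test at an adjusted p below 0.01, the threshold used throughout, beside 11.7% of all tested genes. KRT8 (692 against 902 CPM in WT) and KRT18 (253 against 429 CPM) were lower and VIM (872 against 602 CPM) was higher in PARP1-KO cells. With DMSO 5 of 7 passed, beside 12.4% of all tested genes. PAX2 (0.86 against 5.04 CPM) and NEFM (6.22 ± 0.70 against 24.1 ± 17.9 CPM, SD) were then lower as well. Of those WT libraries, replicates 2 and 3 were among the libraries that detected few genes. With Tpc and with OL9-119 2 markers each passed, beside 8.52% and 9.77% of all tested genes, and with both agents 1, beside 7.27%. In WT cells with both agents KRT8 and KRT18 were lower than without treatment, a comparison in which 4.07% of all tested genes passed. Of 8 markers of other cell types, those of blood, endothelium and liver (PTPRC, CD3E, PECAM1, CDH5, ALB and APOA2) and the fibroblast gene DCN stayed at or below 2.74 CPM, and PTPRC and APOA2 had no count in any WT library. The collagen gene COL1A1 was the exception, at 14.7 to 43.0 CPM in WT and 9.1 to 17.7 CPM in PARP1-KO libraries, and was lower in PARP1-KO cells without treatment (adjusted p = 0.00275, edgeR), with DMSO (adjusted p = 0.000764) and with OL9-119 (adjusted p = 0.00792). The 8 summed to 15.5 to 44.7 CPM in WT and 10.7 to 19.9 CPM in PARP1-KO libraries.

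Only NAMPT and NADK2 passed the test in any of the 18 comparisons, so the sequence before an annotated transcription start of each is shown first. RefSeq windows of 250 bases before a start (GRCh38.p14) were searched for 9 of the members, with 15 windows, and NAPRT was left out of the search. In the lines below, 5′ to 3′ on the strand of the gene, capitals mark a GC box (GGGCGG or its complement), a CCAAT box (CCAAT or its complement) or an E-box (CACGTG), each searched on both strands, and no marked motif overlaps another.
NAMPT, chr7:106285193-106285233, minus strand: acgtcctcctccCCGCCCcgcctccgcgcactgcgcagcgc
NADK2, chr5:36242280-36242529, minus strand: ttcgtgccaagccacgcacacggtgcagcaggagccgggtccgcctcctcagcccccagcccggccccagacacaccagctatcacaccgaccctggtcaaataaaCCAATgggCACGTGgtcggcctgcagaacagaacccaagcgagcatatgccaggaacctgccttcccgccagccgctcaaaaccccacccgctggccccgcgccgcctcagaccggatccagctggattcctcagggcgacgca

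The NAMPT line is the outer 41 bases of its window, since the other 209 bases lie in annotated exons. The annotated gene reaches further out, to base 106285966, so that these 41 bases also lie within it. The whole window, chr7:106284984-106285233, had 77.2% G and C against a median of 58.0% over all 35116 windows, 34 CpG pairs and 3 GC boxes. GC boxes were present in 42.6% of all windows. The outermost of the 3 NADK2 windows, 66.0% G and C, held a CCAAT box at -144 to -140 and an E-box at -136 to -131, counted from the start. CCAAT boxes were found in 32% and E-boxes in 6.34% of all windows. Among the members searched, which leave out NAPRT, only 1 of the NADK windows also held an E-box. The spelled cAMP response element, AP-1 site, NF-kappa B site and C/EBP-ATF element were not found as such in the NAMPT window or in the NADK2 windows.

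Across the members, NAMPT was the gene in which the genotypes differed most clearly. Its mean was higher in PARP1-KO cells in each condition, and this passed the test in each except the combined treatment. NAMPT (ENSG00000105835, chr7:106248298-106285966 of hg38, minus strand) is the rate-limiting enzyme of nicotinamide salvage. Without treatment, replicates 1 to 4 gave 99.1, 105.1, 95.3 and 106.3 CPM in WT cells and 229, 170.0, 177 and 189 CPM in PARP1-KO cells. Each PARP1-KO library lay above the highest WT library. The mean was 101.45 ± 5.14 CPM in WT and 192 ± 26.4 CPM in PARP1-KO cells (SD, n = 4), a 1.89-fold difference, with a log2 fold change of 0.92 ± 0.14 (SE) and an adjusted p of 8.71e-07 in edgeR's quasi-likelihood test with Benjamini-Hochberg adjustment over all tested genes. Genes with an adjusted p below 0.01 are called differentially expressed genes (DEGs) here. In this comparison 2 of the 10 members were DEGs, beside 11.7% of all tested genes. Groups that did not overlap, a looser criterion, were seen for 11.3% of all tested genes with the PARP1-KO libraries higher and 8.37% with them lower. The median log2 fold change was 0.04 over the members and 0.17 over all tested genes. In such bulk samples, fewer cells with a transcript and less of it in each cell cannot be told apart.

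With DMSO, NAMPT was counted at 118.0, 125.9, 65.4 and 104.7 CPM in WT cells and 188, 173, 240.1 and 183 CPM in PARP1-KO cells. The groups again did not overlap, and WT replicate 3, the lowest of all 40 libraries, was among the libraries that detected few genes. The log2 fold change was 0.92 ± 0.14 (adjusted p = 7.08e-07, edgeR) and NAMPT was the only DEG of the 10 members, beside 12.4% of all tested genes. Without overlap were 12.3% of them on the higher and 7.76% on the lower side. Without that WT library the log2 fold change was 0.74, with an adjusted p of 1.37e-05 (edgeR).

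With Tpc, the WT libraries gave 129.2, 103.98, 129.0 and 133.6 CPM of NAMPT and the PARP1-KO libraries 198, 167, 222 and 181 CPM. All PARP1-KO libraries were above all WT libraries, and the log2 fold change was 0.63 ± 0.14 (adjusted p = 0.000641, edgeR). NAMPT was the only DEG of the members, beside 8.52% of all tested genes, and 10.5% and 9.3% of them were without overlap on the higher and the lower side. With OL9-119, WT libraries reached 143, 156, 152 and 153 CPM and PARP1-KO libraries 216, 179, 254 and 208 CPM. The groups did not overlap here either, and the log2 fold change was 0.51 ± 0.14 (adjusted p = 0.00628, edgeR), which made NAMPT again the only DEG of the members, beside 9.77% of all tested genes, and 12.7% and 10.9% were without overlap on the higher and the lower side. This last call was lost, with adjusted p-values up to 0.0538, without any one of the 4 WT replicates or of PARP1-KO replicates 1, 3 and 4.

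With Tpc and OL9-119 together the groups met. WT libraries gave 193, 151, 145 and 168 CPM of NAMPT, PARP1-KO libraries 158, 168, 205 and 219 CPM, and the ranges overlapped. WT replicates 1 and 2 (193 and 151 CPM) were among the libraries that detected few genes. Apart from WT replicate 1 the WT libraries reached 168 CPM, still above the lowest PARP1-KO library. The means were 164 ± 21.4 and 188 ± 29.2 CPM, and the log2 fold change of 0.19 ± 0.14 did not pass the test (adjusted p = 0.371, edgeR). NADK2 was then the only DEG of the members, beside 7.27% of all tested genes, and 10.9% and 7.29% were without overlap on the higher and the lower side. All 5 comparisons of the genotypes have their own libraries, but the differences between them were tested only as differences of response, given with the treatments.

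**Figure D1:**
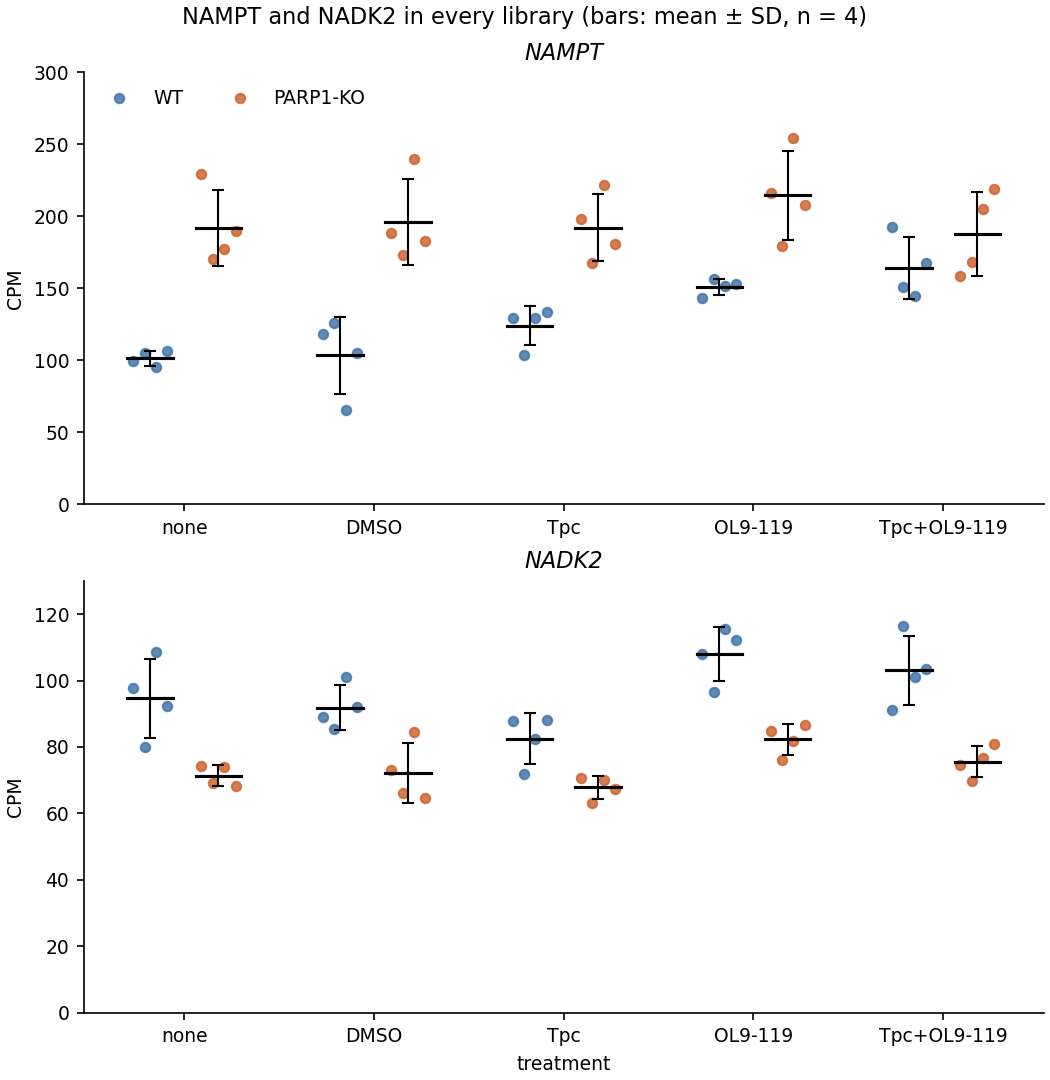
Normalised counts (CPM) of NAMPT and NADK2 in each library, by treatment, with WT in blue and PARP1-KO in orange; points are the 4 replicates and black bars the mean ± SD. NAMPT was higher in all PARP1-KO libraries than in all WT libraries except with Tpc+OL9-119, where the means were 164 and 188 CPM, and NADK2 was lower in all PARP1-KO libraries under each treatment.

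Over all treatments, NAMPT ran from 65.4 to 193 CPM in WT (median 129) and from 158 to 254 CPM in PARP1-KO libraries (median 189). The 5 PARP1-KO groups took the upper 5 places in the order of group means, from 188 CPM with both agents to 214 CPM with OL9-119, and no step between neighbours there was larger than the larger of their SDs. WT cells with both agents came next, 23.7 CPM below PARP1-KO cells with both agents, which is also within that spread. The one step beyond it was the 27.1 CPM between WT cells with OL9-119 and WT cells with Tpc. WT cells without treatment were last and differed from WT cells with DMSO by 2.05 CPM.

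Library names carry 1 of 3 prefixes (L01, L02 and L03), whose meaning the labels do not give. Within a prefix, untreated NAMPT had a log2 ratio of PARP1-KO to WT of 1.01 in L01 and 0.80 in L02, each from 1 WT and 2 PARP1-KO libraries, and L03 held no untreated PARP1-KO library. With both agents the ratio was -0.24 in L01, 0.44 in L02 and 0.49 in L03. NAMPT exons are 35.8% G and C and together cover 23584 bases, against 4360 in the canonical transcript. With offsets for that joint exon length and for GC content, the log2 fold change between genotypes became 0.50 without treatment and 0.54 with DMSO. It became 0.28 with Tpc (adjusted p = 0.0675, edgeR) and 0.14 with OL9-119 (adjusted p = 0.456, edgeR), so that this last pair of calls was lost.

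NADK2 moved the other way. NADK2 (ENSG00000152620, chr5:36192589-36242279, minus strand) is the mitochondrial NAD kinase. Without treatment, it was counted at 97.7, 80.03, 108.6 and 92.4 CPM in WT cells and 74.2, 69.1, 74.1 and 68.3 CPM in PARP1-KO cells. Every PARP1-KO library was below every WT library, and the log2 fold change was -0.41 ± 0.12 (adjusted p = 0.00829, edgeR), which is 0.75 of the WT level. With both agents WT libraries gave 91.2, 116.5, 100.98 and 103.5 CPM and PARP1-KO libraries 74.5, 69.8, 76.7 and 81.0 CPM. The groups did not overlap, and the log2 fold change was -0.45 ± 0.12 (adjusted p = 0.00542, edgeR).

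Under the other treatments NADK2 missed the threshold although the groups never overlapped. Its log2 fold change was -0.35 with DMSO (adjusted p = 0.026, edgeR), -0.28 with Tpc (adjusted p = 0.102) and -0.39 with OL9-119 (adjusted p = 0.0128). Over all libraries NADK2 ranged from 71.8 to 116.5 CPM in WT and from 63.1 to 86.5 CPM in PARP1-KO cells. The order of the group means ran from WT with OL9-119 (108 CPM) to PARP1-KO with Tpc (67.8 CPM), and the step from the lowest WT group (82.5 CPM, with Tpc) to the highest PARP1-KO group (82.3 CPM, with OL9-119) was within their spread.

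The NADK2 calls lie close to the threshold. The untreated call was lost without any one of the WT replicates 1, 3 and 4 or of the PARP1-KO replicates, and the call with both agents without any one of WT replicates 2, 3 and 4 or PARP1-KO replicates 1, 2 and 3. Without the 8 WT libraries that detected few genes, the untreated log2 fold change was -0.27 (adjusted p = 0.0998, edgeR), while those with Tpc (-0.37, adjusted p = 0.00494) and OL9-119 (-0.44, adjusted p = 0.000435) became calls. NADK2 shares 365 exonic bases with SKP2 on the opposite strand, a gene with 249% of its counts, and the strand setting of the counting is not stated. SKP2 itself had log2 fold changes between -0.10 and 0.19 in the 5 comparisons and was not a DEG in any of them. The median gene of chromosome 5 was higher in PARP1-KO cells, by 0.14 to 0.24 on the log2 scale.

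**Figure D2:**
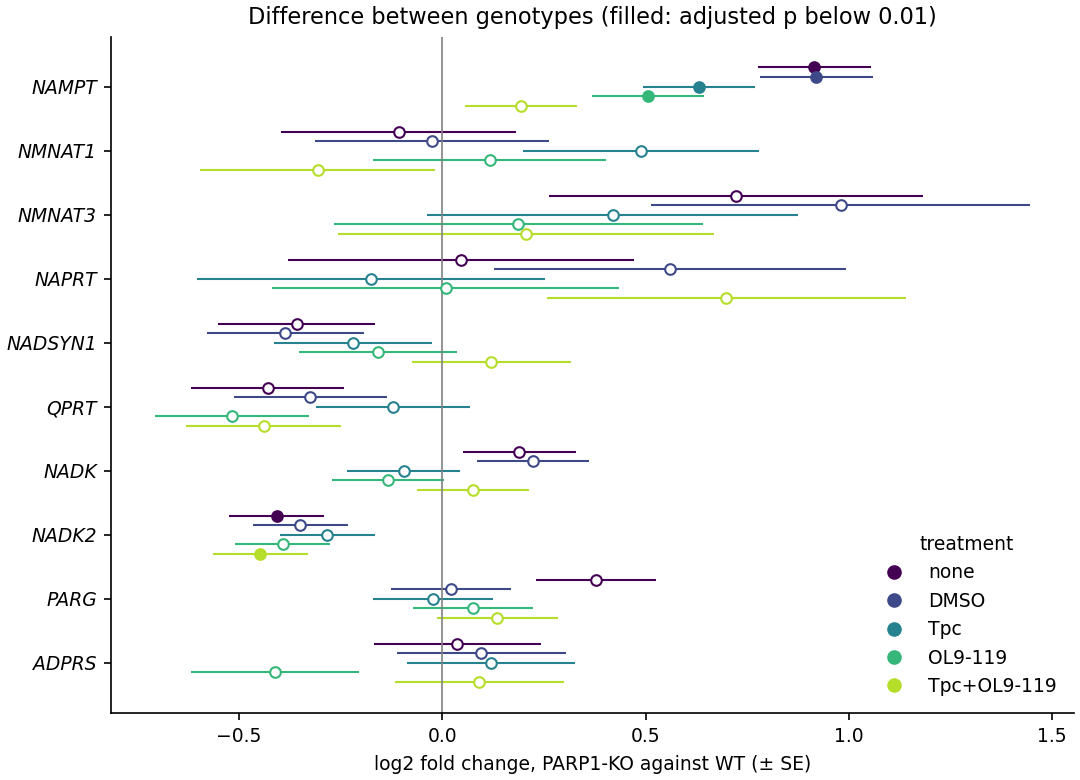
Log2 fold change of each member between PARP1-KO and WT cells under each of the 5 treatments, with bars of 1 SE; filled points have an adjusted p below 0.01 (edgeR). Filled points appear for NAMPT on the right, from 0.51 to 0.92, and for NADK2 on the left, at -0.41 and -0.45, and for no other member.

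The enzymes that join adenylate to the mononucleotide were scarce and variable. NMNAT1, the nuclear form (chr1:9943428-9985501), was counted at 5.72 to 19.4 CPM in WT and 7.5 to 16.7 CPM in PARP1-KO libraries, and its log2 fold changes between genotypes ran from -0.31 to 0.49 with SEs of 0.29. NMNAT3, the mitochondrial form (chr3:139560180-139678017), had 0 to 6.79 CPM in WT and 3.90 to 7.69 CPM in PARP1-KO libraries. The single library without a count, WT with DMSO replicate 3, allows up to 0.36 CPM by counting error alone. The NMNAT3 mean was the higher in PARP1-KO cells under all treatments, by 0.19 to 0.98 on the log2 scale, with SEs of 0.45 to 0.47 and adjusted p-values of 0.132 or more (edgeR). With SEs this wide, differences of that size in NMNAT3 did not pass the test, and no limit of detection was computed. The WT library without a count was also among those that detected few genes. NMNAT3 also shares 264 exonic bases with COPB2-DT on the opposite strand.

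Of the routes that bypass nicotinamide, none differed between the genotypes by the test. NAPRT (chr8:143574785-143578649), which converts nicotinic acid, was at 0.36 to 11.5 CPM in WT and 3.97 to 13.2 CPM in PARP1-KO libraries. With both agents all PARP1-KO libraries (6.68 to 7.73 CPM) were above all WT libraries (0.88 to 6.59 CPM), yet the log2 fold change of 0.70 ± 0.44 did not pass (adjusted p = 0.304, edgeR). QPRT (chr16:29663279-29698699), the last step that is particular to de novo synthesis, had a lower mean in PARP1-KO cells under each treatment, by -0.12 to -0.52 on the log2 scale with SEs of 0.19. Its smallest adjusted p was 0.0547, with OL9-119 (edgeR), where WT libraries gave 35.0, 52.7, 38.5 and 37.2 CPM and PARP1-KO libraries 22.6, 27.9, 37.8 and 25.9 CPM, with overlap. The fit of only the 8 libraries of that comparison called it, at an adjusted p of 0.00707.

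NADSYN1 (chr11:71453109-71524107), which completes both of these routes, had log2 fold changes of -0.36 in untreated cells, -0.39 after DMSO, -0.22 after Tpc, -0.16 after OL9-119 and 0.12 after both agents, with SEs of 0.19 to 0.20, and was no DEG. With both agents, WT replicate 1, among the libraries that detected few genes, gave 19.9 CPM of NADSYN1. The other WT libraries of that group gave 45.3 to 65.1 CPM, so the positive value leans on that library. NADSYN1 lies on a chromosome whose genes were low in the clone as a group. Of 688 genes on chromosome 11 with a mean of at least 50 counts, 563 had a lower level in untreated PARP1-KO cells, and the median log2 fold change was -0.51 without treatment and -0.44 to -0.50 under the other treatments. Relative to that median NADSYN1 was 0.11 to 0.56 higher. The part of this shift in the NADSYN1 values was not tested.

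NADK (chr1:1751232-1780457), the cytosolic kinase, was at 46.7 to 86.3 CPM in WT and 61.3 to 89.0 CPM in PARP1-KO libraries, with log2 fold changes of -0.13 to 0.22 and SEs of 0.14. It did not share the difference seen for NADK2 by the test, although the difference between the kinases was not itself tested. PARG (chr10:49818279-49970203) was higher in all untreated PARP1-KO libraries (93.8, 92.3, 89.2 and 86.3 CPM) than in WT libraries (75.2, 76.1, 46.3 and 80.7 CPM), with a log2 fold change of 0.38 ± 0.15 that did not pass (adjusted p = 0.066, edgeR). The WT library at 46.3 CPM was among those that detected few genes, and with the other treatments the PARG log2 fold change lay between -0.02 and 0.14. PARGP1, a pseudogene that resembles PARG, was counted at 17.3% of its level, so that part of these reads may belong to either. PARGP1 had a log2 fold change between genotypes of 1.01 ± 0.37 untreated (adjusted p = 0.0444, edgeR) and 0.24 to 0.86 otherwise. TIMM23B, which shares 37 exonic bases with PARG on the opposite strand, had 0.60 untreated (adjusted p = 0.0581, edgeR). With DMSO it had 0.84 (adjusted p = 0.00535), and otherwise -0.09 to 0.29. Their part in the PARG values was not tested. ADPRS (chr1:36088892-36093932) ranged from 19.3 to 54.8 CPM in WT and 23.4 to 44.2 CPM in PARP1-KO libraries, and its log2 fold change was -0.41 ± 0.21 with OL9-119 (adjusted p = 0.187, edgeR) and 0.04 to 0.12 otherwise.

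Levels of different genes can be compared only per length, as TPM. Counts over all exons were divided here by the length of the canonical transcript. That is 4360 of 23584 exonic bases for NAMPT and 3235 of 5570 for NADK. The order of the members depends on this choice, and it was not computed with the joint exon length. In untreated WT cells NADK2 (47.6 ± 4.96 TPM) and NAMPT (47.3 ± 6.86 TPM) were the highest members, followed by NADSYN1 (43.9), QPRT (39.98), NADK (39.94), ADPRS (37.9) and PARG (33.1), and no neighbours among these differed by more than their spread. A step of 24.2 TPM beyond the spread separated PARG from NAPRT (8.97 TPM), below which came NMNAT1 (5.51 TPM) and NMNAT3 (3.85 TPM). In untreated PARP1-KO cells NAMPT stood alone at 99.6 ± 15.3 TPM, 49.2 TPM above NADK (50.4 TPM), a step larger than their spread. PARG (47.6), ADPRS (43.8), NADK2 (40.3), NADSYN1 (37.9) and QPRT (33.97 TPM) followed, each within the spread of its neighbour.

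**Figure D3:**
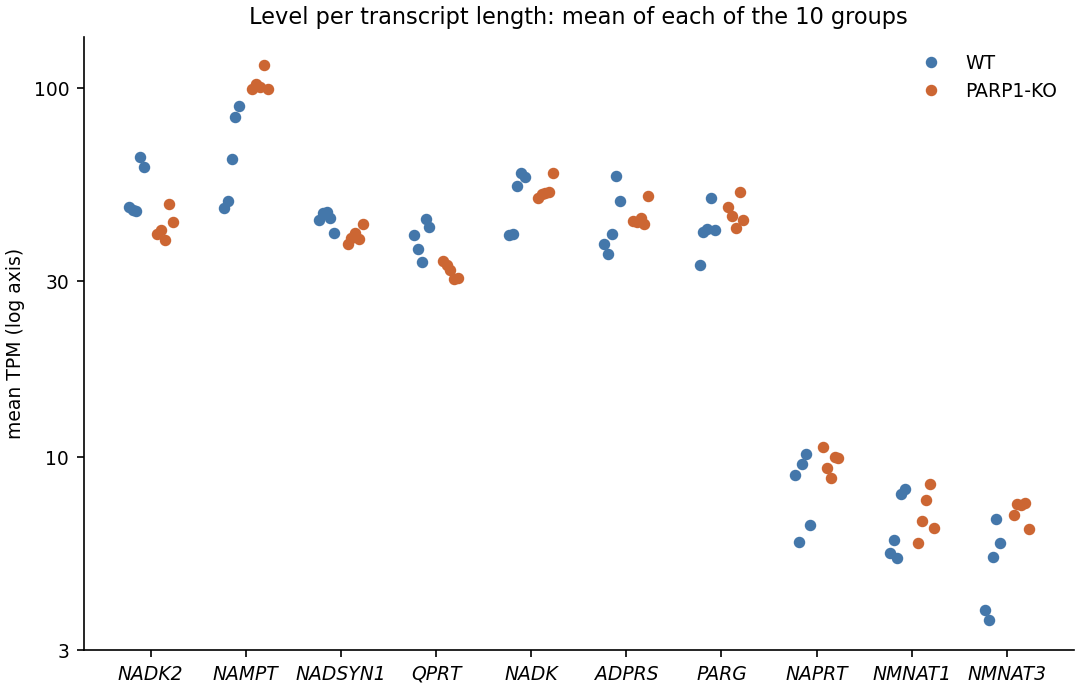
Mean level of each member per transcript length (TPM, log axis) in the 5 WT groups (blue) and 5 PARP1-KO groups (orange), each in the order none, DMSO, Tpc, OL9-119 and Tpc+OL9-119. NAMPT is at 99.6 TPM in untreated PARP1-KO and 47.3 TPM in untreated WT cells, and NAPRT, NMNAT1 and NMNAT3 are at or below 10.7 TPM in every group.

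Each treatment was set against the untreated cells of its own genotype, so that comparisons within a genotype share 4 untreated libraries. In WT cells NAMPT was the only member that passed the test with a treatment. It rose with OL9-119 from 101.45 ± 5.14 to 151 ± 5.53 CPM, each treated library lying above each untreated one, with a log2 fold change of 0.57 ± 0.14 (adjusted p = 0.00935, edgeR). This was 1 of 10 members, beside 1.28% of all tested genes, with 2.99% above their untreated libraries without overlap. With Tpc and OL9-119 together NAMPT rose to 164 ± 21.4 CPM, again without overlap, by 0.69 ± 0.14 on the log2 scale (adjusted p = 0.00047, edgeR), 1 of 10 members beside 4.07% of all tested genes and 3.75% above without overlap. Within the 3 prefixes of the library names, the log2 ratio to untreated cells was 0.53, 0.57 and 0.60 with OL9-119 and 0.96, 0.52 and 0.63 with both agents.

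The call with OL9-119 was near the threshold. Against DMSO-treated instead of untreated WT cells the log2 fold change was 0.54 (adjusted p = 0.0169, edgeR), with the offsets for length and GC content 0.41 (adjusted p = 0.0182), and the call was lost without any one of untreated replicates 1, 2 and 3 or of the 4 treated replicates, although the log2 fold change stayed between 0.54 and 0.60. Without the 8 WT libraries that detected few genes both calls were lost, at 0.50 (adjusted p = 0.0255) with OL9-119 and 0.55 (adjusted p = 0.0165) with both agents.

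Tpc alone and DMSO alone gave no DEG among the members in WT cells. NAMPT had a log2 fold change of 0.29 ± 0.14 with Tpc (adjusted p = 0.303, edgeR) and 0.03 ± 0.14 with DMSO, and the treated and untreated libraries overlapped. With Tpc, 3 of 10 members had an unadjusted p below 0.05 (NAMPT, NADK and QPRT), DESeq2 called 0 members, and 0.857% of all tested genes were DEGs. With DMSO 0 of 10 members had such a p, DESeq2 called 0 members, and 0% of all tested genes were DEGs. When OL9-119 was added to Tpc in WT cells, NAMPT was 0.41 ± 0.14 higher on the log2 scale (unadjusted p = 0.00508, adjusted p = 0.266, edgeR) and NADK2 0.32 ± 0.12 higher (unadjusted p = 0.00849, adjusted p = 0.316). Neither passed the test, nor did any member by DESeq2, beside 0.18% of all tested genes.

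The remaining members of WT cells showed values short of the threshold. With OL9-119, NADK (79.1 against 63.4 CPM) and PARG (90.0 against 69.6 CPM) were each above all untreated libraries, beside 2.99% of all tested genes. Their log2 fold changes were 0.32 ± 0.14 (adjusted p = 0.226, edgeR) and 0.37 ± 0.15 (adjusted p = 0.182). Untreated replicate 3, among the libraries that detected few genes, gave 46.7 CPM of NADK and 46.3 CPM of PARG. The other untreated libraries gave 67.8 to 70.2 CPM of NADK and 75.2 to 80.7 CPM of PARG. The median log2 fold change over the 10 members was 0.29 with OL9-119, where it was 0.0033 over all tested genes, and 0.13 with both agents, where it was also 0.0 over all tested genes. NADK2, a DEG between genotypes, had 0.19 ± 0.12 with OL9-119 (adjusted p = 0.418) and -0.20 ± 0.12 with Tpc (adjusted p = 0.41).

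In PARP1-KO cells no member passed the test with any treatment. NAMPT stayed between 158 and 254 CPM, and its log2 fold changes were 0.04 after DMSO, 0.0049 after Tpc, 0.16 after OL9-119 and -0.03 after both agents, each with an SE of 0.14. For all 10 members the 4 sets of log2 fold changes lay between -0.28 and 0.48, with 0 of 10 members at an unadjusted p below 0.05 and 0 called by DESeq2 in each of them. DEGs were 0%, 0.0138%, 0.00346% and 0% of all tested genes with DMSO, Tpc, OL9-119 and both agents. In PARP1-KO cells with OL9-119 all NADK2 libraries (76.1 to 86.5 CPM) were above the untreated ones (68.3 to 74.2 CPM), with a log2 fold change of 0.21 ± 0.12 (adjusted p = 1.0, edgeR), beside 1.96% of all tested genes that lay above without overlap. With Tpc, all PARG libraries of PARP1-KO cells (74.9 to 81.6 CPM) were below the untreated ones (86.3 to 93.8 CPM), with a log2 fold change of -0.21 ± 0.15 (adjusted p = 0.89, edgeR), beside 2.7% of all tested genes that lay below without overlap. When OL9-119 was added to Tpc, 0% of all tested genes and none of the members were DEGs by edgeR, with 0 members at an unadjusted p below 0.05 and 0 by DESeq2.

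**Figure D4:**
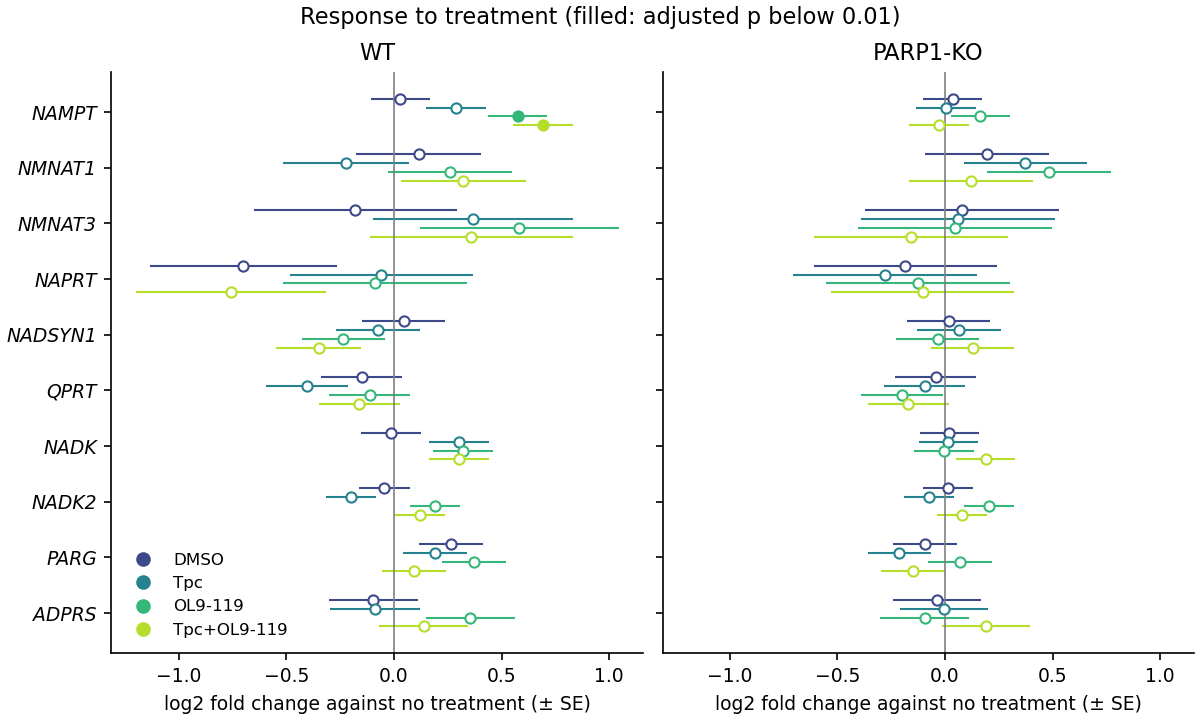
Log2 fold change of each member with DMSO, Tpc, OL9-119 or Tpc+OL9-119 against untreated cells of the same genotype, WT on the left and PARP1-KO on the right, with bars of 1 SE; filled points have an adjusted p below 0.01 (edgeR). Filled points appear for NAMPT in WT cells given OL9-119 (0.57) or Tpc+OL9-119 (0.69), and all points of NAMPT in PARP1-KO cells lie between -0.03 and 0.16.

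Whether the NAMPT response itself differed between genotypes was tested as the difference of the log2 fold changes, PARP1-KO minus WT. For both agents together it was -0.72 ± 0.20, with an unadjusted p of 0.000509 and an adjusted p of 0.0787 (edgeR), which does not pass the threshold. For OL9-119 it was -0.41 ± 0.20 (adjusted p = 0.728) and for Tpc -0.28 ± 0.20 (adjusted p = 0.789). No member was a DEG in these tests by edgeR or DESeq2, beside 0.1% of all tested genes for Tpc, 0.0657% for OL9-119 and 0.27% for both. At an unadjusted p below 0.05 there were 0, 1 and 1 members, NAMPT in both cases. A different NAMPT response of the genotypes was thus not shown.

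Genes whose 10 group means on the log2(CPM + 1) scale ran most nearly in parallel to NAMPT, among 12161 genes with a mean of at least 50 counts, were IARS1 (Pearson r = 0.996), which charges the isoleucine tRNA, ARRDC3 (r = 0.994), an arrestin domain protein, and PANK2 (r = 0.991), which starts coenzyme A synthesis in mitochondria. These are correlations over 10 means that share libraries, given as a description. IARS1 went from 316 CPM in untreated WT cells to 447 CPM with OL9-119 and 464 CPM with both agents, and was at 521 to 563 CPM in the PARP1-KO groups. ARRDC3 ran from 17.0 CPM in untreated WT cells to 58.3 CPM with both agents and 83.2 to 101.3 CPM in the PARP1-KO groups. For NADK2 the nearest genes were JADE1 (r = 0.982), SDCCAG8 (r = 0.978) and ADIRF-AS1 (r = 0.977).

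Around these enzymes, other genes of NAD metabolism were taken by list. Of 14 NAD consumers other than PARP1, 2 were DEGs between untreated genotypes, 1 higher and 1 lower, with a median log2 fold change of 0.48 where that of all tested genes was 0.17. SARM1, which degrades NAD in injured axons, was a DEG in all 5 comparisons of the genotypes. It had 25.997 CPM in untreated PARP1-KO and 12.3 CPM in untreated WT cells, with a log2 fold change of 1.08 ± 0.23 (adjusted p = 0.000222, edgeR), and the groups did not overlap. SIRT3, the mitochondrial deacetylase, which is named after its value was seen, was the one lower, at 9.87 against 22.7 CPM, and lies on chromosome 11. In WT cells, SIRT1, the nuclear deacetylase, was the only consumer that passed the test with a treatment. It went from 58.9 ± 16.1 to 97.3 ± 6.37 CPM (SD) with both agents (log2 fold change 0.73 ± 0.17, adjusted p = 0.00322, edgeR). Both groups held libraries that detected few genes, and the SIRT1 call was not recomputed without them.

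Among 7 other genes that remove or hydrolyse ADP-ribose, 2 were DEGs between untreated genotypes, and the list median was 0.39. MACROD1, a hydrolase of terminal ADP-ribose, was lower in PARP1-KO cells (24.02 against 44.6 CPM, log2 fold change -0.87 ± 0.24, adjusted p = 0.00599, edgeR) and also lies on chromosome 11. ADPRHL1, a relative of the ADP-ribose hydrolases, was higher (19.3 against 6.44 CPM, 1.57 ± 0.33, adjusted p = 0.000218). Of 6 tested genes for transport, transhydrogenation and repair of the coenzyme, 2 were DEGs, both lower, with a list median of -0.30. NNT, which moves hydride from NADH to NADP in mitochondria, had 95.9 CPM in untreated PARP1-KO and 134 CPM in untreated WT cells (-0.49 ± 0.13, adjusted p = 0.00329) and was lower in all 5 comparisons. NAXE, an epimerase in the repair of hydrated NADH, was at 93.1 against 138 CPM (-0.57 ± 0.14, adjusted p = 0.00235). In WT cells NAXE fell from 138 ± 35.0 to 92.4 ± 15.4 CPM (SD) with both agents (log2 fold change -0.58 ± 0.14, adjusted p = 0.005, edgeR). That call, too, was not recomputed without the libraries that detected few genes.

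Of 6 tested genes of the de novo route before QPRT, with a list median of 0.33 between untreated genotypes, AFMID, the formamidase of kynurenine synthesis, was a DEG between genotypes with OL9-119 (32.3 against 19.7 CPM, 0.71 ± 0.20, adjusted p = 0.00979, edgeR) and is named after its value was seen. Of 6 other salvage and clearance genes 1 was a DEG, PNP, which frees nicotinamide from its riboside and is named after its value was seen. PNP had 134 CPM in PARP1-KO and 99.03 CPM in WT cells (0.43 ± 0.11, adjusted p = 0.00364, edgeR). Called with DMSO but not without treatment, and given after their values were seen, were NUDT5, PARP2, NUDT9 and NMRK1. NUDT5 was higher in PARP1-KO cells with DMSO (0.75 ± 0.14, adjusted p = 4.27e-05, edgeR), OL9-119 (0.86) and both agents (0.76). PARP2 was higher with DMSO (0.51, adjusted p = 0.00964). With DMSO, NUDT9 (-0.69, adjusted p = 0.00729) and NMRK1 (-1.77, adjusted p = 0.0014) were lower. NUDT9 was also lower with both agents (-0.77). The WT group with DMSO held libraries that detected few genes. Beside the counts between untreated genotypes stand the 11.7% of all tested genes that were DEGs in that comparison. Beside the genes called with DMSO stand 12.4%, and beside AFMID the 9.77% with OL9-119. Beside SIRT1 and NAXE in WT cells stand the 4.07% with both agents. Nothing particular to these short lists is read from their shares.

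**Figure D5:**
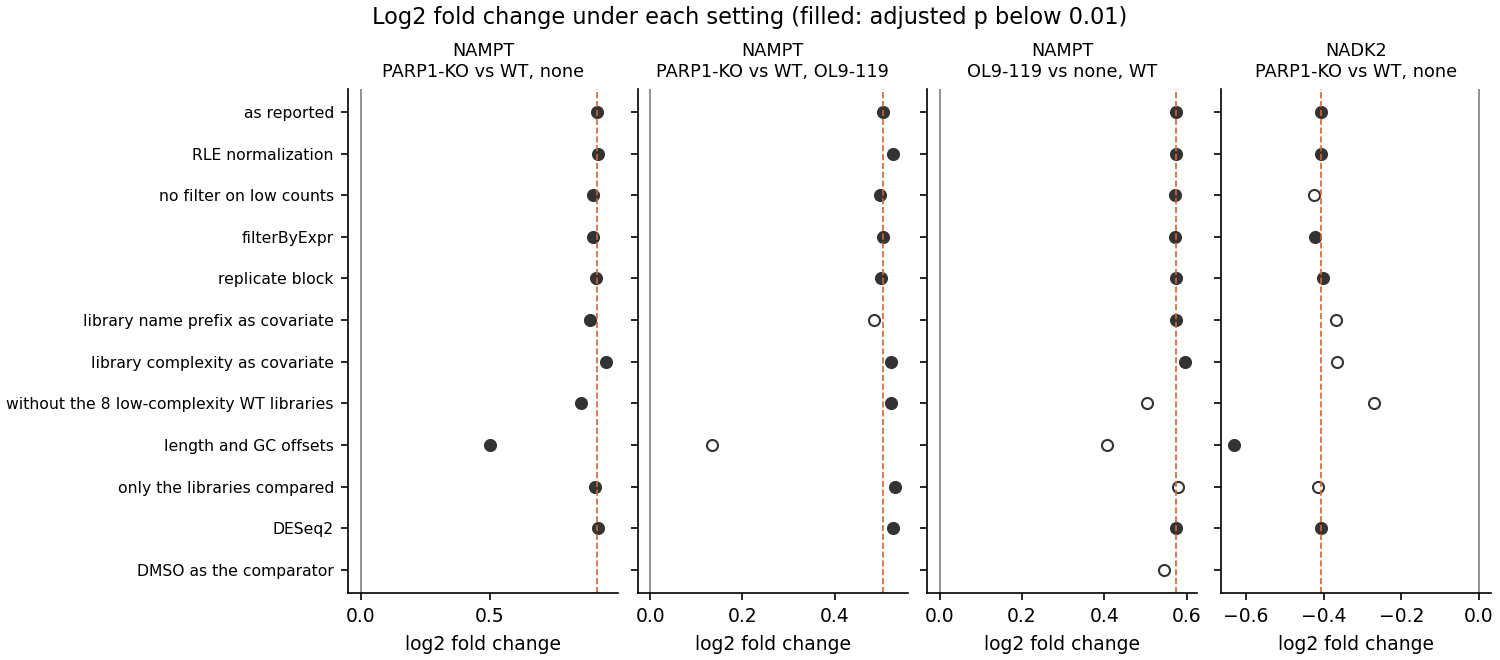
Log2 fold change of NAMPT or NADK2 in 4 comparisons (columns) under each setting of the analysis (rows); filled points have an adjusted p below 0.01 and the dashed line marks the value as reported. NAMPT between untreated genotypes is filled at every point, from 0.50 to 0.95, while each of the other 3 comparisons has open points under 2 or more settings.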

How the data were processed

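The authors sequenced 40 poly(A), directional RNA libraries as paired ends, aligned the reads to hg38 with STAR 2.7.8 and deposited raw counts per gene, not normalized and with replicates not pooled. FastQC 0.11.9 and Picard 2.26.6 appear in the submitters' processing notes. The strand column kept is not stated, so members that overlap another gene are uncertain. Column names gave the samples, and 0 columns belonged to others. A gene was tested when its counts over the 40 libraries added up to 10 or more. Tests used edgeR 4.0.16 in R 4.3.3 (TMM, quasi-likelihood F-test with the legacy option), with the 10 conditions as groups. P-values of the 28922 genes were adjusted together by the Benjamini-Hochberg method and called below 0.01, and the SE is the log2 fold change divided by the square root of F. GENCODE 44 gave symbols and positions, and TPM used the canonical transcript length. Libraries held 3455043 to 20379777 counts, of which 546 to 3386 were from NAMPT. Replicates of a group differed by more than sampling noise (chi-square per degree of freedom of 2.33 or more), so none was counted as a repeat. Intervals and floors cover counting error only. The edgeR procedure was also run on simulated counts, in which all groups shared the same mean per gene apart from changes put in. Libraries that detect few genes were not simulated, and no result here rests on that run. The members and gene lists were chosen with earlier results of these data known. Named genes were the members, PARP1, genes of 5 pathway lists called between genotypes both untreated and with DMSO (up to 3 a list) or in any treatment comparison, and the 3 genes most correlated with each called member. Outside this rule, SIRT3, PNP, AFMID, NUDT5, PARP2, NUDT9 and NMRK1 were named after their values were seen. Alternatives are given in the closing section. DESeq2 1.42.0 was one of them.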

Additional observations from a re-analysis of the deposited data

Results flagged for a closer look

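In 7 of 100 sets of 4 libraries (10 members in 10 groups), 1 library stood apart from the other 3 by Dixon's criterion, where chance alone gives about 1 in 20. NAMPT was lowest in WT with Tpc replicate 2, at 103.98 CPM against 129 to 134 CPM. NADK and PARG were lowest in untreated WT replicate 3, at 46.7 CPM and 46.3 CPM. Both of these libraries were among the 8 WT libraries that detected few genes. In PARP1-KO cells, NMNAT1 was lowest with OL9-119 in replicate 1 (10.4 CPM), NAPRT was highest without treatment in replicate 1 (13.2 CPM), NADK was highest with Tpc in replicate 2 (84.8 CPM), and ADPRS was lowest with DMSO in replicate 3 (26.1 CPM).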

How the results depend on the processing

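Of 3618 log2 fold changes of members recomputed under another setting, 3549 kept their side of the threshold or, by subtraction of a chromosome median, which has no test, moved by less than their SE, 42 lost and 14 gained a call, and 13 moved by more than their SE by that subtraction. The sign changed in 0 of the 152 recomputed values of called changes and in 271 of the 3466 of changes that were not called, among them NADSYN1 between genotypes by that subtraction. Members called between genotypes were 2 without treatment and 1 under each other treatment. Without treatment, 1 was called with no filter on low counts, with the library name prefix or library complexity as covariate, with only the libraries compared, and without the 8 WT libraries that detected few genes, a setting chosen after seeing the data. With DMSO, 2 were called with filterByExpr or DESeq2 and 3 with offsets for length and GC content. With Tpc, 2 were called without the 8 libraries. With OL9-119, 0 were called with the prefix, 2 with filterByExpr, DESeq2 or without the 8 libraries, and 3 with only the libraries compared. With both agents, 0 were called with no filter or with complexity as covariate. In WT cells, the single call with OL9-119 became 0 without the 8 libraries, with the offsets, with only the libraries compared and against DMSO, and that with both agents 0 without the 8 libraries. Leaving out each library gave 1 to 2 members called without treatment, 1 to 2 with DMSO, 1 to 1 with Tpc, 0 to 1 with OL9-119 and 0 to 1 with both agents between genotypes, and 0 to 1 with OL9-119 and 1 to 1 with both agents in WT cells. The causes were not tested.

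Libraries were not paired by replicate number. The deviations of same-numbered libraries correlated by 0.0584 on average among WT groups (-0.279 to 0.525) and by 0.0987 among PARP1-KO groups (-0.228 to 0.544). Libraries with different numbers correlated by -0.00825 and -0.0286 on average, so that a weak pairing remains possible. With a replicate block, 2 members were called between untreated genotypes, and none of the 180 member values changed its call.

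Over all genes, the number called changed by more than 1.5 times for some settings: from 3592 to 2061 between genotypes with DMSO, from 2463 to 4456 with Tpc, from 2827 to 4871 with OL9-119, and in WT cells from 248 to 561 with Tpc (62 higher and 61 lower when only the libraries compared were fitted), from 371 to 138 or 742 with OL9-119 and from 1177 to 424 or 1885 with both agents. In PARP1-KO cells, counts of 0 to 4 with a treatment reached up to 186. For OL9-119 added to Tpc the count of 52 in WT cells reached 106 and that of 0 in PARP1-KO cells 11, and for DMSO in WT cells 0 became 9. The differences of response went from 29 to 50, 19 to 37 and 78 to 155. Low counts limit NMNAT1, NMNAT3 and NAPRT, whose SEs were the widest.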
